A study of Danio rerio with 8 samples.

Results

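The visual opsins of zebrafish larvae were examined gene by gene. The members were the 9 rows of the count table whose symbol is a cone or rod opsin: opn1sw1 (UV), opn1sw2 (blue), opn1mw1, opn1mw2, opn1mw3 and opn1mw4 (green), opn1lw1 and opn1lw2 (red) and rho (rod), out of 35197 rows. They were chosen by name. RNA came from 8 single whole larvae at 6 days post fertilization. The groups were 4 wild-type siblings and 4 zygotic homozygotes for osgep G177A, that is, larvae of genotype osgep G177A/G177A. The allele lies in osgep, the catalytic subunit gene of the KEOPS complex, which makes the t6A modification of transfer RNA. The labels name neither clutch nor tank, and each library is a whole body, in which the eye is a small part.

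An opsin is the light-absorbing receptor of a photoreceptor. Bound to retinal, it activates transducin when struck by light, transducin activates a phosphodiesterase, and the fall in cyclic GMP closes a channel. Each zebrafish cone type carries its own opsin class, and rods carry rhodopsin. The green and red classes arose by tandem duplication, and in zebrafish the paralogs of each array are used at different ages and in different parts of the retina: opn1mw1, opn1mw2 and opn1lw2 appear early, and opn1mw3, opn1mw4 and opn1lw1 later and nearer the margin. The genes opn1mw1 to opn1mw4 follow each other in the RefSeq gene order of GRCz12tu, as do opn1lw1 and opn1lw2. Near-identical paralogs can trade reads, so the values of single array members are uncertain and the sum over an array is given beside them.

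Library totals ran from 14398812 to 19052599 estimated counts. Opsins made up 0.367%, 0.372%, 0.479% and 0.521% of them over wild types 1 to 4, and 0.329%, 0.457%, 0.314% and 0.304% over homozygotes 1 to 4. Levels are CPM, counts scaled to a common library size, with sizes adjusted by the trimmed mean of M-values (TMM). The TMM factors were 0.732 to 1.07 in wild-type and 0.951 to 1.23 in homozygous larvae, so a fold change is relative to the bulk of genes. With library totals alone the median log2 fold change of all tested rows moved from 0.02 to 0.40. An earlier look at these data found wild-type 1 and homozygote 2 apart from the rest of their groups, and counts of calls and named genes whose call changes without that pair are also given without it. osgep itself was at 5.55 to 11.5 CPM in wild-type and 1.64 to 3.68 CPM in homozygous larvae.

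Opsin RNA was lower in homozygotes for the green paralog opn1mw2, while the abundant opsins of each class had negative log2 fold changes that did not pass the test. Of the 9 genes, opn1mw2 fell, 6 did not pass and 2, opn1mw3 and opn1mw4, had too few counts to test (edgeR's quasi-likelihood test, adjusted p under 0.05 over 21447 rows). Among all tested rows 0.769% fell. At an unadjusted edgeR p under 0.05, 5 opsin genes were lower, against 12.4% of all rows. In whole larvae, fewer cells of a type and less RNA per cell cannot be told apart.

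The green array is described first. opn1mw2 was at 15.7, 13.6, 26.5 and 28.3 CPM over wild types 1 to 4, against 8.38, 2.89, 4.13 and 4.25 CPM over homozygotes 1 to 4. Every homozygote lay below the lowest wild-type larva on this scale, and homozygote 2 was the lowest of all. With library totals alone the groups overlapped, with homozygote 1 at 10.3 CPM above wild-type 2 at 9.91 CPM. The log2 fold change was -2.10 (SE 0.34, 95% interval -2.84 to -1.36, edgeR adjusted p = 0.0183), or 4.29-fold lower. The counts behind these levels were 165 to 484 in wild-type and 51 to 148 in homozygous larvae.

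opn1mw1 supplied nearly all green opsin reads. Per larva it stood at 662, 981, 1092 and 1148 CPM over wild types 1 to 4, against 461, 812, 373 and 467 CPM over homozygotes 1 to 4. Homozygotes 1, 3 and 4 lay below all wild-type larvae, whereas homozygote 2 lay above wild-type 1. The log2 fold change was -0.88 (SE 0.28, 95% interval -1.47 to -0.29, edgeR adjusted p = 0.105). opn1mw3 had 4 counts in wild-type 3, 2 in homozygote 4 and 0 in the other 6 larvae, and opn1mw4 had 1 count in each of wild-type 3 and 4 and 0 elsewhere. A count of 0 allows up to 3 counts, which is 0.133 to 0.246 CPM depending on the larva. At this depth no genotype difference was detectable in either gene, and no fold is given.

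**Figure D1:**
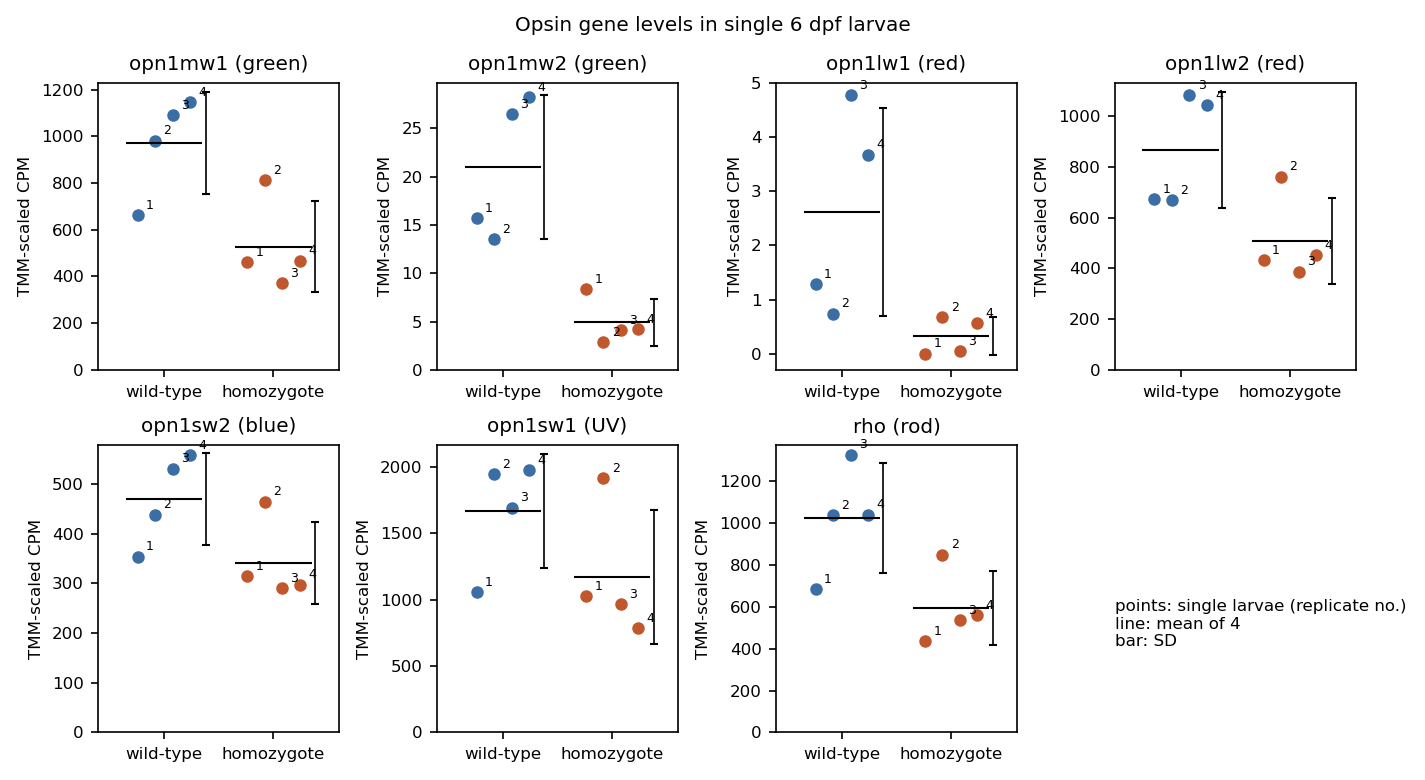
Level of each tested opsin gene in TMM-scaled CPM (linear axes) in 4 wild-type and 4 homozygous larvae; points are single larvae with their replicate number, lines are means and bars are SD. Homozygote 2 sits highest of its group for opn1mw1, opn1lw2, opn1sw2, opn1sw1 and rho, and lowest for opn1mw2 at 2.89 CPM.

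The share of opn1mw2 in green array counts shows the same gene without any library scaling. It was 2.32%, 1.36%, 2.37% and 2.403% in wild-type larvae 1 to 4 and 1.79%, 0.354%, 1.10% and 0.902% in homozygotes 1 to 4. Homozygote 1 exceeded wild-type 2, so the groups overlapped, with 3 of 4 homozygotes below every wild-type larva. The 95% Wilson interval of homozygote 2 was 0.270% to 0.466%, and that of wild-type 2 was 1.17% to 1.58%; such intervals cover counting error only. The mean share was 2.11% ± 0.501 (SD, n = 4) in wild-type and 1.03% ± 0.592 (SD, n = 4) in homozygous larvae.

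In the red array, opn1lw2 was the abundant gene. It was at 672, 669, 1084 and 1043 CPM over wild types 1 to 4, against 434, 761, 388 and 451 CPM over homozygotes 1 to 4. Only homozygote 2 reached the wild-type range. With library totals alone homozygotes 1 and 4 (532 and 536 CPM) also exceeded wild-type 2 (489 CPM). The log2 fold change was -0.77 (SE 0.27, 95% interval -1.35 to -0.19, edgeR adjusted p = 0.129).

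opn1lw1, the later red paralog, was scarce. It had 1.29, 0.739, 4.77 and 3.68 CPM over wild types 1 to 4, against 0, 0.681, 0.0444 and 0.561 CPM over homozygotes 1 to 4. The groups did not overlap on this scale, as for opn1mw2 (2 of the 7 tested opsins, against 4.95% of all tested rows lower in this way), but the gap between wild-type 2 and homozygote 2 rests on 9 and 12.0 counts. With library totals alone wild-type 2 was at 0.541 CPM, below homozygotes 2 and 4 at 0.647 and 0.666 CPM. Only 3 wild-type and 2 homozygous larvae had at least 10 counts. The fitted log2 fold change was -3.02 (SE 0.88, 95% interval -4.96 to -1.07, edgeR adjusted p = 0.101). Its share of red array counts was 0.110% to 0.438% in wild-type and 0% to 0.124% in homozygous larvae, and homozygote 4 exceeded wild-type 2.

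**Figure D2:**
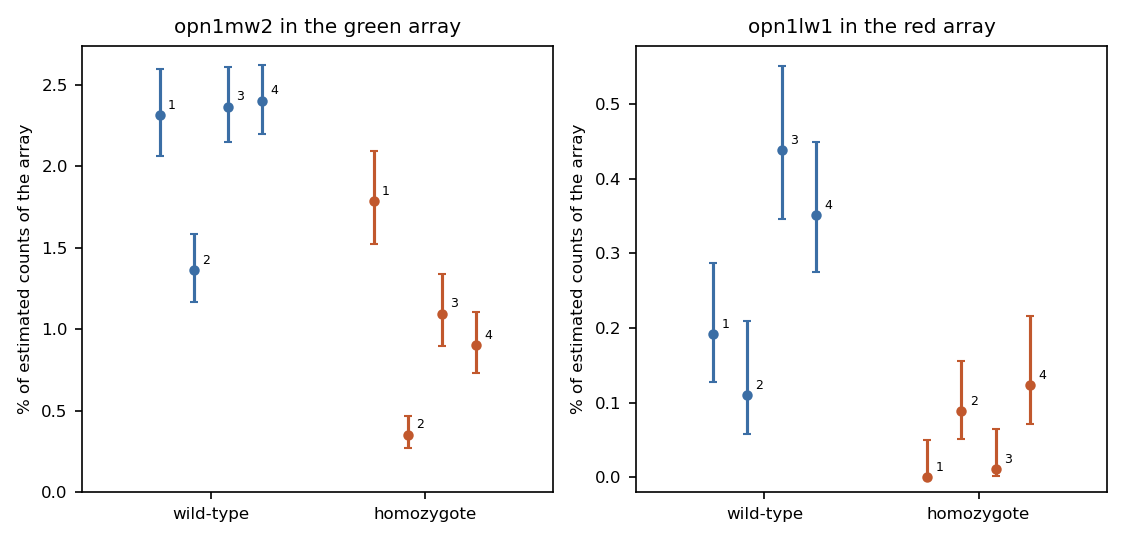
Share of opn1mw2 in the counts of the green array and of opn1lw1 in those of the red array, in percent, per larva; bars are 95% Wilson intervals and numbers are replicates. In both panels 3 of 4 homozygotes lie below every wild-type larva and 1 does not.

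opn1sw1, the UV opsin gene, was at 1055, 1944, 1693 and 1975 CPM over wild types 1 to 4, against 1028, 1913, 966 and 783 CPM over homozygotes 1 to 4. Homozygotes 1, 3 and 4 lay below all wild-type larvae, homozygote 1 only slightly below wild-type 1. Homozygote 2 lay inside the wild-type range, close to wild-type 2. With library totals alone homozygotes 1 and 3 (1261 and 1188 CPM) exceeded wild-type 1 (1122 CPM). Homozygote 2 (1818 CPM) then lay above every wild-type larva (up to 1775 CPM). The log2 fold change was -0.51 (SE 0.31, 95% interval -1.17 to 0.16, edgeR adjusted p = 0.348).

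opn1sw2, the blue opsin gene, was at 354, 439, 532 and 558 CPM over wild types 1 to 4, against 315, 465, 290.2 and 298 CPM over homozygotes 1 to 4. Homozygote 2 again lay inside the wild-type range and the other 3 homozygotes below it. With library totals alone every homozygote lay inside the wild-type range (353 to 442 CPM, against 321 to 502 CPM). The log2 fold change was -0.46 (SE 0.22, 95% interval -0.94 to 0.02, edgeR adjusted p = 0.241).

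rho, the rod opsin gene, was at 686, 1039, 1328 and 1041 CPM over wild types 1 to 4, against 436, 849, 536 and 561 CPM over homozygotes 1 to 4. As with opn1mw1, homozygote 2 lay above wild-type 1 and the other homozygotes lay below all wild-type larvae. The log2 fold change was -0.78 (SE 0.27, 95% interval -1.35 to -0.21, edgeR adjusted p = 0.123).

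Summing the paralogs of each array and refitting the whole table gave a log2 fold change of -0.90 (SE 0.27, 95% interval -1.49 to -0.31, edgeR adjusted p = 0.101) for green and -0.77 (SE 0.27, edgeR adjusted p = 0.128) for red opsins. With blue, UV and rod opsins as above, 0 of 5 classes were called by edgeR; 3 were lower at an unadjusted p under 0.05 (12.4% of all rows), DESeq2 called 3 lower (green, red and rod; 5.2% of rows) and limma voom called 0 (0.518%). Without wild-type 1 and homozygote 2 edgeR called all 5 lower, against 10.5% of rows. In summed opsins these were the lowest wild-type larva and the highest homozygote. Levels of different genes depend on transcript length and are not ranked here.

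The calls moved with the libraries and the tool. In summed opsins wild-type 1 was the lowest wild-type larva (3446 CPM) and homozygote 2 the highest homozygote (4805 CPM). Dropping this pair therefore widens the gap in summed opsins by construction, and calls without it are no separate support. Without wild-type 1 and homozygote 2, all 7 tested opsins were called lower by edgeR, in a fit that called 10.5% of all rows lower. The log2 fold changes were then -1.29 for opn1mw1, -1.12 for opn1lw2, -0.99 for opn1sw1, -0.74 for opn1sw2 and -1.13 for rho, with edgeR adjusted p between 0.00239 for opn1mw1 and 0.0427 for opn1lw1. That of opn1mw2 was little moved at -2.02. Without homozygote 2 alone, 4 opsins were called (3.46% of all rows lower), without wild-type 1 alone 3 (5.77%), and with DESeq2 4 (5.2%). opn1mw2 no longer passed once wild-type 3 (edgeR adjusted p = 0.0615), homozygote 3 (0.0778) or homozygote 4 (0.0839) was dropped (0.146%, 0.226% and 0.351% of all rows lower), with library totals alone (log2 fold change -1.69, edgeR adjusted p = 0.0536; 0.163% of rows lower) and with 1 surrogate variable (-1.94, edgeR adjusted p = 0.124; 0.518%). It passed in each of the other fits, in which the share of rows lower was 0.228% once wild-type 2 was dropped, 1.19% after dropping wild-type 4 and 0.184% after dropping homozygote 1, and 0.825% with RLE size factors, 0.798% with no filter, 0.881% with a minimum count of 50, 0.518% with limma voom, 0.699% without the robust option and 1.22% with replicate number as a term. The direction was negative for every tested opsin under each of these settings, and 48.2% of all rows were below 0 in the main fit. These fits share larvae, so agreement in sign is not repeated evidence. opn1sw1 was at only -0.0013 with 1 surrogate variable and opn1sw2 at -0.093 with library totals alone.

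**Figure D3:**
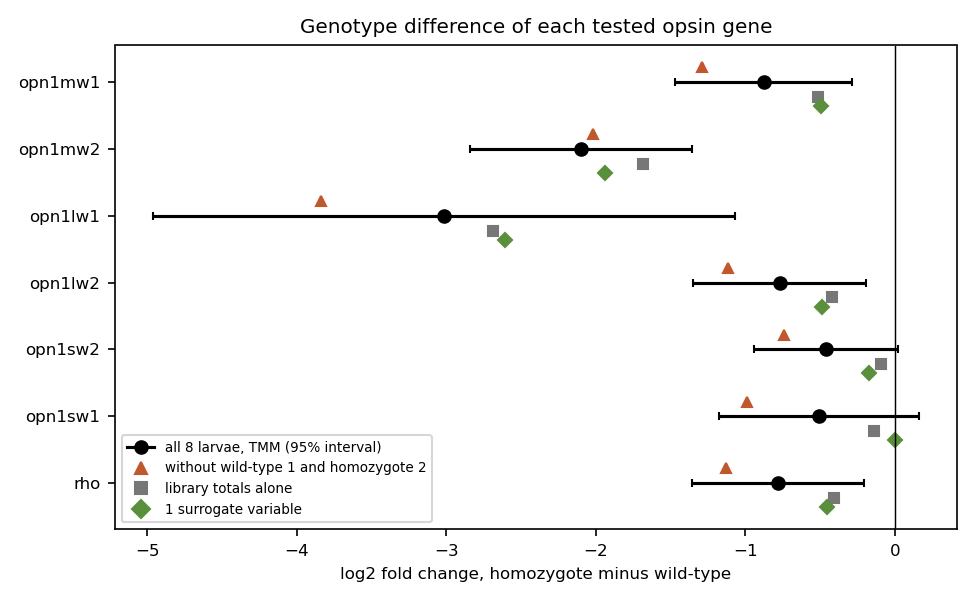
log2 fold change (homozygote minus wild-type) of the 7 tested opsins; black points with 95% intervals are from all 8 larvae, and the other symbols show 3 other settings. All points lie at or below 0, opn1mw2 stays between -2.10 and -1.69, and the other genes shift left without wild-type 1 and homozygote 2.

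Whether the classes differed from each other in their response was asked with ratios within a larva, which need no library scaling. Each of the 10 pairs of classes was put to an exact permutation test over larvae (two-sided), adjusted over the pairs; 4 against 4 larvae cannot go below p = 0.0286. The log2 ratio of green to blue opsin CPM was 0.94, 1.18, 1.07 and 1.07 over wild types 1 to 4, against 0.57, 0.81, 0.38 and 0.66 over homozygotes 1 to 4. Every homozygote was below every wild-type larva, a mean difference of -0.46 against a within-group SD of 0.15 (exact permutation p = 0.0286, adjusted p = 0.190). The single p is the smallest possible, and after correction over 10 pairs it could pass only if at least 6 pairs reached it.

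The log2 ratio of green to UV opsin differed by -0.38 (within-group SD 0.22, exact permutation p = 0.0857, adjusted p = 0.214), with homozygote 4 inside the wild-type range. Red to blue and rod to blue differed by -0.32 each (exact permutation p = 0.0571 and adjusted p = 0.190 for both). Green to red and green to rod each differed by -0.14 (exact permutation p = 0.429 and 0.400, adjusted p = 0.536 for both), less than their within-group SDs of 0.19 and 0.22. Red to rod differed by -0.00025, with a within-group SD of 0.25. Red to UV and rod to UV differed by -0.24 each and UV to blue by -0.085, each by less than the within-group SD. No pair passed after correction, which with these numbers of larvae says little about whether the classes differed.

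**Figure D4:**
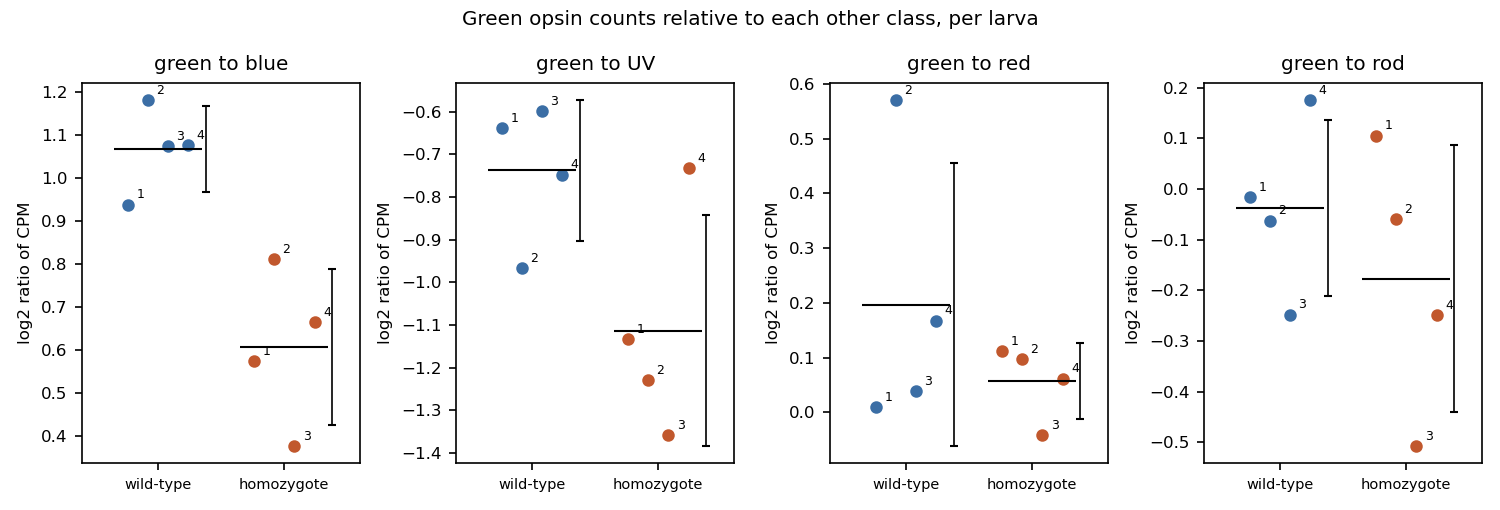
log2 ratio of green opsin CPM to that of each other class in single larvae (numbers are replicates, lines are means, bars are SD). The groups separate for green to blue, with homozygotes at 0.38 to 0.81 and wild-type larvae at 0.94 to 1.18, and overlap in the other 3 panels.

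As shares of all opsin counts, green took 19.4% to 20.3% in wild-type and 14.7% to 18.4% in homozygous larvae, without overlap. Blue took 8.63% to 10.3% and 9.68% to 11.7%, UV 29.4% to 38.2% and 30.5% to 39.8%, red 13.2% to 19.5% and 15.2% to 17.6%, and rod 18.0% to 23.1% and 16.3% to 21.9%, all overlapping. These shares sum to the whole, so a lower green share raises the others.

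The rest of the phototransduction pathway was taken from lists of genes without opsins. Across the transducin, phosphodiesterase, channel, cyclase, shut-off and outer segment lists, 72 genes were tested. edgeR called 2 lower and 0 higher, against 0.769% and 0.284% of all rows, and 70 did not pass. At an unadjusted edgeR p under 0.05, 9 were lower and 5 higher, against 12.4% and 9.84% of all rows. DESeq2 called 6 lower and 3 higher, against 5.2% and 2.7% of rows. With limma voom 1 was lower and 0 higher, against 0.518% and 0.191%. Without wild-type 1 and homozygote 2 edgeR called 10 of the 72 lower and 4 higher, against 10.5% and 7.86% of rows. Their median log2 fold change was -0.12, against 0.02 for all tested rows and -0.78 for the 7 tested opsins. A median weighs scarce and abundant genes alike. In whole larvae, reads of listed genes such as gnb1a, gnb1b, gnb5a and gnb5b need not come from photoreceptors alone. Summed phosphodiesterase CPM was 671 to 1041 in wild-type and 441 to 639 in homozygous larvae. Outer segment sums were 323 to 388 and 247 to 316 CPM, also without overlap on the TMM scale. With library totals alone the outer segment sums overlapped, whereas the phosphodiesterase sums did not. Single genes weighed heavily in both sums. pde6ha, a phosphodiesterase gene, averaged 612 CPM of a mean sum of 864 in wild-type, and 308 of 522 in homozygous larvae. prph2b averaged 110 of 354 CPM in wild-type and 60.5 of 285 in homozygous larvae. Of the 72 genes, 4 lay lower without overlap (5.56%, against 4.95% of all rows) and 4 higher (1177 of 21447 rows). Transducin sums (1173 to 1509 and 890 to 1297 CPM) and shut-off sums (1168 to 1549 and 939 to 1255 CPM) overlapped, as did channel and cyclase sums. With library totals alone, where all rows had a median of 0.40, the 6 list medians ran from 0.13 to 0.55. gngt2a, a cone transducin gamma subunit gene, was at 13.9, 15.6, 18.7 and 15.9 CPM in wild-type and 8.04, 8.05, 4.00 and 6.55 CPM in homozygous larvae 1 to 4 (log2 fold change -1.27, SE 0.22, edgeR adjusted p = 0.0187). prph2b, which encodes an outer segment rim protein, was 1.81-fold lower (edgeR adjusted p = 0.0489). Both calls were lost with library totals alone (edgeR adjusted p = 0.0624 and 0.0862) and with 1 surrogate variable (0.0641 and 0.186). In leave-one-out fits by edgeR, gngt2a also dropped out when wild-type 2, wild-type 3 or homozygote 4 was removed (adjusted p up to 0.0855), and prph2b when any larva but wild-type 1 or homozygote 2 was removed (up to 0.169), with limma voom (0.0564) or without the robust option (0.0573).

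Among the lists, transducins had 1 of 9 lower, outer segment genes 1 of 21, and 0 of 6 phosphodiesterase, 0 of 9 channel, 0 of 8 cyclase and 0 of 19 shut-off genes were called by edgeR. Without wild-type 1 and homozygote 2 the calls were 4 lower and 2 higher for transducins, 1 and 1 for phosphodiesterases, 0 and 0 for channels, 0 and 1 for cyclases, 4 and 0 for shut-off genes, and 1 and 0 for outer segment genes. pde6ha, the gene of a cone phosphodiesterase inhibitory subunit, was at 434 to 735 CPM in wild-type and 228 to 432 CPM in homozygous larvae (log2 fold change -0.99, edgeR adjusted p = 0.0623). It was called lower by DESeq2 (adjusted p = 0.00136), and by edgeR with the replicate block (0.0224), when wild-type 1 (0.0182) or homozygote 2 (0.0241) was removed, and without both (0.00218). pde6b, on the same list, went the other way without overlap, with means of 5.03 CPM in wild-type and 8.80 CPM in homozygous larvae. Its log2 fold change was 0.81 (edgeR adjusted p = 0.0688). gucy2f, a photoreceptor guanylate cyclase gene, was also higher, with 1.48 to 3.48 CPM in wild-type and 4.19 to 5.72 CPM in homozygous larvae (log2 fold change 0.90, edgeR adjusted p = 0.0987). The cone recoverin-like gene rcvrn3 had a log2 fold change of -0.76 (edgeR adjusted p = 0.0879) and the rod channel gene cngb1a -0.38 (edgeR adjusted p = 0.238). gucy2f was called higher by DESeq2 (adjusted p = 0.0362), and by edgeR when wild-type 1 was removed (0.0400) and without the pair (0.0280). rcvrn3 was called lower by DESeq2 (adjusted p = 0.0196), and by edgeR when wild-type 1 (0.0196) or homozygote 2 (0.0441) was removed and without both (0.00304).

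Opsin classes were also set against these 72 genes within each larva, as the class level over their geometric mean (0.5 CPM added). The log2 ratio differed by -0.81 for green (within-group SD 0.39, exact permutation p = 0.0571), -0.67 for red (p = 0.0857 by the same exact test), -0.67 for rod (exact permutation p = 0.0571), -0.44 for UV and -0.35 for blue, with adjusted p between 0.143 and 0.229 over 5 classes, a correction that at least 3 classes at the smallest p would be needed to pass. Reads from outside photoreceptors would enter this reference too, and their part was not tested. Against the summed CPM of these genes, which the abundant ones dominate, the differences were smaller. They were -0.46 for green, -0.32 for red, -0.32 for rod, -0.083 for UV and 0.0014 for blue (smallest adjusted exact permutation p = 0.286). A further reference held 10 cone genes: gnat2, gngt2a, gngt2b, pde6c, pde6ha, cnga3a, cnga3b, grk7a, arr3a and arr3b. It included gngt2a, which edgeR called lower, and pde6ha, and other choices of cone genes were not tested. Against these genes alone, the differences were -0.37 for green, -0.23 for red, -0.23 for rod, 0.087 for blue and 0.0024 for UV (adjusted exact permutation p between 0.571 and 1). The mean log2 CPM of those cone genes was 6.45 to 6.84 in wild-type and 6.00 to 6.31 in homozygous larvae, without overlap on the TMM scale.

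Transcription factors that set photoreceptor fate were next. edgeR called 2 of 20 lower and 0 higher, against 0.769% and 0.284% of all rows. At an unadjusted p under 0.05, 9 were lower (12.4% of rows) and 1 higher (9.84%), and 6 had all homozygotes below all wild-type larvae (4.95% of rows). DESeq2 called 3 lower (5.2%), limma voom 1 (0.518%), and edgeR without wild-type 1 and homozygote 2 called 5 lower and 2 higher (10.5% and 7.86%). crx, which acts in all photoreceptors, was at 31.6, 36.6, 43.0 and 30.9 CPM in wild-type and 11.5, 16.4, 21.2 and 22.1 CPM in homozygous larvae 1 to 4 (log2 fold change -0.996, SE 0.21, edgeR adjusted p = 0.0392). otx5, its relative in retina and pineal, was 1.88-fold lower (edgeR adjusted p = 0.0470). For each gene all homozygotes lay below all wild-type larvae in TMM-scaled CPM. Removing wild-type 2, wild-type 3, homozygote 1 or homozygote 3 ended the crx call (edgeR adjusted p up to 0.153), and these or homozygote 4 ended that of otx5 (up to 0.159), as did a fit with limma voom (0.0606) or without the robust option (0.0570). Library totals alone (0.113 and 0.108) and 1 surrogate variable (0.0756 and 0.199) ended both.

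Factors tied to single cone types did not pass with all larvae. six7, needed for green cones in zebrafish, was at 15.95 to 22.5 CPM in wild-type and 9.23 to 15.3 CPM in homozygous larvae (log2 fold change -0.57, SE 0.19, edgeR adjusted p = 0.117). Without wild-type 1 and homozygote 2 it was called lower (-0.66, edgeR adjusted p = 0.0465). tbx2b, for UV cones, had a log2 fold change of 0.32 (edgeR adjusted p = 0.232) and was called higher without the pair (0.47, edgeR adjusted p = 0.0486). six7 and tbx2b were each called in only 1 of 18 alternatives, a fit that called 10.5% of all rows lower and 7.86% higher. The value of thrb, for red cones, was 0.41 (edgeR adjusted p = 0.399). foxq2, for blue cones, was at 0.15 (edgeR adjusted p = 0.881), six6b at 0.13 (0.804), and the rod factors nrl and nr2e3 at 0.50 (0.604) and 0.20 (0.718). foxq2 averaged only 0.723 CPM in wild-type larvae.

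In the visual cycle, which regenerates retinal for opsins, edgeR called 1 of 30 genes lower (0.769% of all rows) and 0 higher, and 24 of the 30 log2 fold changes were below 0, against 48.2% of all rows. At an unadjusted p under 0.05, 11 were lower (12.4% of rows). DESeq2 called 6 lower (5.2%), limma voom 1 (0.518%), edgeR with the replicate block 3 (1.22%) and edgeR without wild-type 1 and homozygote 2 called 9 (10.5%). rlbp1b, for a retinal-binding protein of Muller glia and also on that cell type's list, was at 25.1, 35.9, 36.7 and 18.6 CPM in wild-type and 11.8, 13.8, 14.1 and 11.6 CPM in homozygous larvae 1 to 4 (log2 fold change -1.18, SE 0.21, edgeR adjusted p = 0.0208). The call ended when wild-type 2, wild-type 3, homozygote 1, homozygote 3 or homozygote 4 was removed (edgeR adjusted p up to 0.0915), with library totals alone (0.0684) and with 1 surrogate variable (0.0903). Of 18 pineal and nonvisual opsin and melatonin genes, 0 were called by edgeR, DESeq2 or limma voom. At an unadjusted edgeR p under 0.05, 3 were lower and 1 higher, against 12.4% and 9.84% of all rows. aanat2, a pineal melatonin enzyme gene, had a log2 fold change of -1.18 (edgeR adjusted p = 0.123).

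Gene lists named for other eye cells follow. Each library is a whole body, so reads of these genes need not come from the eye, and their source was not tested. Of 43 bipolar, amacrine, horizontal and ganglion cell markers, edgeR and limma voom called 0. DESeq2 called 1 lower and 3 higher, against 5.2% and 2.7% of rows. At an unadjusted edgeR p under 0.05, 1 was lower and 5 higher, against 12.4% and 9.84% of rows. The median log2 fold change was 0.22, with 31 of 43 above 0 and 12 below, the latter against 48.2% of all rows. Examples are vsx1 at 0.57, pax6b at 0.92 and cxcr4b at -1.003 (edgeR adjusted p = 0.205, 0.0661 and 0.0800). Without wild-type 1 and homozygote 2 edgeR called 1 lower and 5 higher (10.5% and 7.86% of rows), with pax6b higher (adjusted p = 0.0133) and cxcr4b lower (0.0342). Of 13 Muller glia markers 1, rlbp1b, fell with all larvae (0.769% of rows), with a list median of -0.17; 2 were called lower when homozygote 2 was removed (3.46%) and 4 without the pair (10.5%). Of 20 lens markers edgeR and limma voom called 0 and DESeq2 2 lower (4 lower at an unadjusted p under 0.05, against 5.2% and 12.4% of rows), with a median of -0.39 and 0 called by edgeR without the pair; their summed level ran from 2326 to 6528 CPM in wild-type and 1505 to 5495 CPM in homozygous larvae, and crygn2, a crystallin gene, had a log2 fold change of -1.03 (edgeR adjusted p = 0.104; DESeq2 0.0170). Of 12 pigment epithelium and pigment cell markers edgeR and limma voom called 0 and DESeq2 3 lower (5.2% of rows), and 9 were lower at an unadjusted p under 0.05 (12.4%). In the pigment list 11 of 12 log2 fold changes were below 0 (48.2% of rows) and the median was -0.74, and edgeR without wild-type 1 and homozygote 2 called 3 lower (10.5%). Their summed level was 142 to 260.3 CPM in wild-type and 91.3 to 123 CPM in homozygous larvae, without overlap, and pmela, a melanosome gene, was at 28.4 to 53.5 against 15.5 to 25.3 CPM (edgeR adjusted p = 0.0541, and 0.00909 without the pair). pmela was called lower in 8 of 18 alternatives. With library totals alone the lens median was 0.044 and the pigment median -0.32, and the summed pigment marker levels overlapped between the groups. The part of these shifts in the opsin values was not tested.

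**Figure D5:**
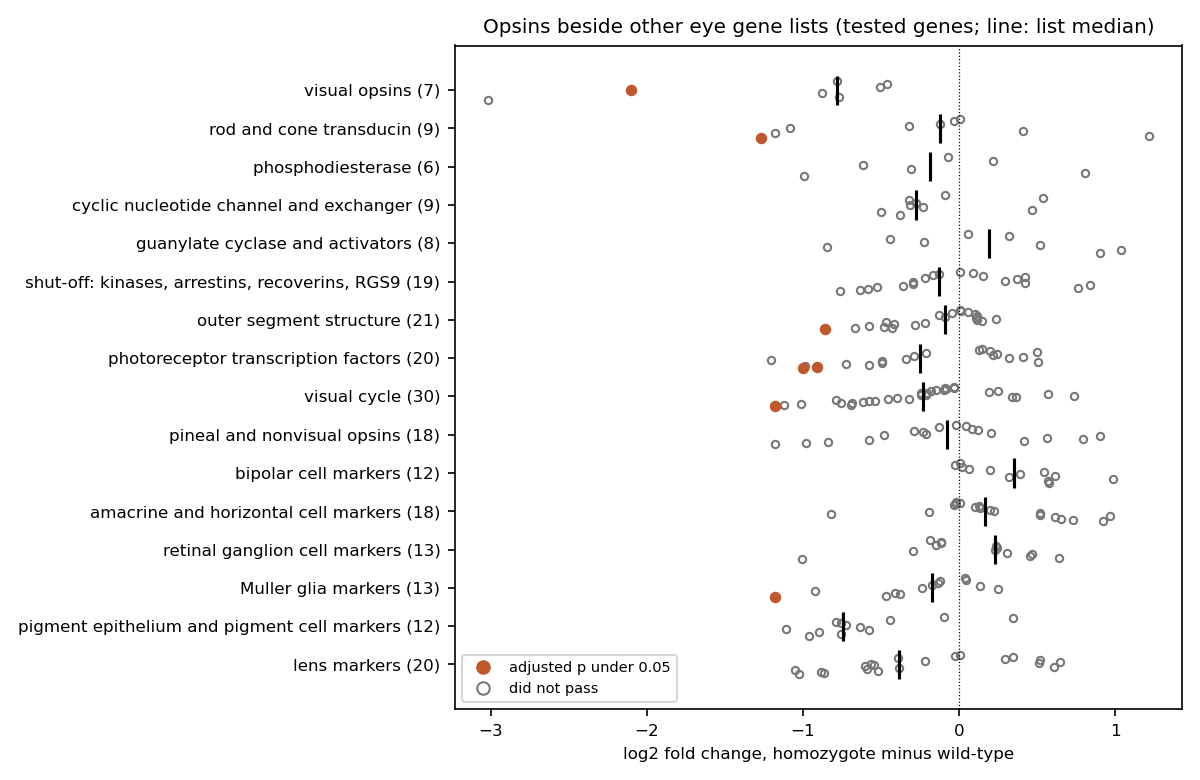
log2 fold change (homozygote minus wild-type) of every tested gene on each list, with the number of tested genes in brackets; filled points passed an adjusted p of 0.05 and the line is the list median. The opsin median of -0.78 lies beside that of the pigment list at -0.74, while the cyclase, bipolar, amacrine and horizontal, and ganglion cell lists have medians above 0 (0.17 to 0.35).

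Over the 8 larvae, the profiles of the abundant opsins lay nearer to each other than to those of the scarce paralogs. Likeness was measured as the root mean square difference of log2 CPM (0.5 CPM added) after centring each gene, over 8 larvae. It was 0.18 between opn1mw1 and opn1lw2, 0.20 between opn1mw1 and rho and 0.32 between opn1sw1 and opn1lw2, but 0.83 between the neighbours opn1mw1 and opn1mw2. Among 17839 other genes with a mean of at least 2 CPM, those nearest to the summed opsins were tmem38a, a muscle cation channel gene (0.066), cdca8, a mitotic chromosome gene (0.068), prkag3b, a kinase subunit gene (0.084), tmod4, for a muscle actin-capping protein (0.091), and mia (0.093). The nearest to single opsins were tmod4 for opn1mw1 (0.10), myom2a for opn1lw2 (0.12), tnnc1b for opn1sw2 (0.050), MMP23B for opn1sw1 (0.086) and eif4ebp3l for rho (0.10). Each of these opsins lay nearer to that gene than to any other opsin. That gene was the nearest of 17839 and the other tested opsins are few, so this comparison cannot show whether likeness is particular to opsins. opn1mw2 and opn1lw1 had no near gene, the closest being BX323596.2 at 0.49 and hbbe2 at 0.51. The measure grows with a gene's own spread. The SD of log2 CPM over larvae was 1.19 for opn1mw2 and 1.23 for opn1lw1, against 0.38 to 0.63 for the other tested opsins. Larger distances for opn1mw2 and opn1lw1 therefore need not mean a profile of another shape. These figures describe the libraries and were not tested.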

How the data were processed

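Ribosome-depleted, random-primed RNA libraries of 8 single larvae were sequenced, per the labels' protocols. The authors deposited estimated counts per gene; Trimmomatic, STAR 2.7, RSEM and build danRer11 are named per the submitters' processing notes. The annotation, strand setting and handling of shared reads are not given in the sources used here. Estimated counts were rounded, filtered with filterByExpr (minimum count 10; 21447 rows kept), TMM-scaled and tested with edgeR 4.0.16 (robust quasi-likelihood, genotype only) in R 4.3.3, with Benjamini-Hochberg adjustment over all rows. Each SE is the absolute log2 fold change over the root of F. Every library is 1 animal, so spread between libraries is spread between larvae. Alternatives used DESeq2 1.42.0, limma 3.58.1 and sva 3.50.0, other scalings and filters, a replicate block and left-out larvae. Steps were tested on simulated data. Members, lists and tests were chosen with earlier results of these data known. Named genes are all opsins, called list members or else the one with the smallest p, cone-type regulators, osgep, the nearest profiles and, outside this rule, pde6b. Transcript lengths were not used, so levels per coding length are not given.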

Additional observations from a re-analysis of the deposited data

Results flagged for a closer look

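In 100 groups of 4 larvae examined, 7 held a larva set far from the other 3, where chance flags about 1 in 20. Homozygote 2 stood high in the summed opsins (4805 CPM, next 2682), opn1sw2 (465 CPM, next 315) and opn1lw2 (761 CPM, next 451). Wild-type 2 had a low share of opn1mw2 in the green array (1.36%, next 2.32%), and wild-type 1 a low level of rcvrn3 (143 CPM, next 246). Homozygote 4 stood apart in the log2 ratio of red to UV opsin (-0.79, next -1.24) and homozygote 1 in that of rod to blue (0.47, next 0.87). Results without homozygote 2 or wild-type 1 stand beside the opsin values above.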

How the results depend on the processing

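With all larvae 1 opsin was called lower by edgeR. The number was 4 with DESeq2, 0 with library totals alone, 0 with 1 surrogate variable, 7 without wild-type 1 and homozygote 2 together, and 0 to 4 when 1 larva was left out. Of all rows, 0.769% were called lower in the main fit, 5.2% with DESeq2 and 10.5% without that pair. The share was 0.163% with library totals alone, 0.518% with 1 surrogate variable and 0.146% to 5.77% with 1 larva left out. With arrays summed, 0 of 5 classes were called, 3 with DESeq2, 5 without that pair and 0 to 3 with 1 larva left out. That pair held the lowest wild-type and the highest homozygous level of summed opsins. Under every alternative run (18, or 17 for opn1lw1, which a minimum count of 50 removed) the tested opsins had log2 fold changes below 0. The runs share larvae, so this is not repeated evidence. The log2 fold change of opn1mw2 ran from -2.47 to -1.69 and was called in 13 (adjusted p 3.31e-07 to 0.124). Of the class ratios, red to rod turned to 0.0029 with the largest paralog alone; relative to other photoreceptor genes, blue turned to 0.087 and UV to 0.0024 against cone genes alone, and blue to 0.0014 with summed CPM. None of these was called. Uncalled regulators also changed sign: foxq2 to -0.052 without wild-type 4, -0.13 without homozygote 2 and -0.062 without the pair; nrl to -0.28 with 1 surrogate variable and -0.072 without homozygote 4; six6b to -0.11 without homozygote 2 and -0.18 without the pair. With 1 larva left out they ran from -0.13 to 0.50, -0.072 to 0.90 and -0.11 to 0.30. The cause was not tested. Same-numbered larvae did not deviate together (correlations -0.11 to 0.052), which cannot settle whether the numbers mark a shared clutch or tank. With the replicate block opn1mw2 was at -2.14 (edgeR adjusted p = 0.0198), 1 opsin and 0 classes were called, and all calls in the table rose from 226 to 333. All calls were 123 with library totals alone, 1693 with DESeq2, 3952 without the pair and 38 to 2130 with 1 larva left out. Levels per coding length were not run. Counts limit opn1lw1, opn1mw3 and opn1mw4.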
